A study of Mus musculus with 10 samples.

Results

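The Sox2 locus was taken as chromosome 3 from 34440000 to 34680000 in mouse build mm9, a stretch of 240 kb in which Sox2 lies at about 34548927 to 34551382 on the forward strand and the distal control region known from embryonic stem cells at about 34650000 to 34662000. Every site of open chromatin that overlapped this stretch by 1 bp or more was a member, 288 of 1816946 sites in all: 111 in embryonic stem cells (ESC), 85 in epiblast stem cells (EpiSC), 65 in neural progenitors (NSC) and 27 in embryonic fibroblasts (MEF). The sites come from FAIRE-seq, which sequences the nucleosome-poor DNA that stays in the aqueous phase when sheared, formaldehyde-fixed chromatin is extracted with phenol. ESC were the E14 line grown without serum in 1 µM of the MEK inhibitor PD032590 and 3 µM of the GSK3 inhibitor CH99021 with LIF. EpiSC were the E3 line, expanded on mitomycin-treated fibroblast feeders in conditioned medium with 5 ng/ml FGF2 and kept free of feeders for 2 days before crosslinking. NSC were derived from ES cells and kept in 10 ng/ml each of FGF2 and EGF, and MEF came from E16.5 embryos and grew in serum. No group carries a genetic change named in the labels, and ESC and EpiSC each stand for a single line. The labels give 10 samples, 2 in each cell type and 2 of sheared genomic DNA, of which 4, 1 per cell type, came with a list of sites used here. With 1 list each, differences between cell types have no replicate error and were not tested, and read depth is unknown. A label of the MEF samples names NSC chromatin, while their title and cell type name fibroblasts. Genes of mm9 other than Sox2 were not looked up, so the cell types rest on their labels and not on markers.

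Sox2 encodes a transcription factor of the SOX family with an HMG-box DNA-binding domain. In pluripotent cells it binds together with Oct4 and is needed for self-renewal, and in neural progenitors it is a defining factor that is lost on differentiation. Its enhancers are spread out: the SRR1 and SRR2 elements flank the gene at close range, and the distal control region, a cluster of binding sites for pluripotency factors, drives most of its transcription in mouse ES cells and contacts the promoter across the intervening DNA. Sox2 has a single exon, and in the RefSeq gene table (build GRCm38) it lies inside the span of Sox2ot, a long noncoding RNA gene. The next protein-coding genes in that table are Dnajc19 on the side before Sox2 and Atp11b on the side after it.

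The bases just before the gene are shown because all 4 lists hold a site across its start. The MEF site begins only 0.1 kb before the start in mm9, so most of the printed window lies outside that site. RefSeq gives the 250 bases that precede the Sox2 start, chr3:34649745-34649994 on the forward strand of GRCm38.p6, numbers that belong to that build and not to mm9. Capitals mark a match to the GC box (GGGCGG) or the CCAAT box (CCAAT), searched on both strands together with the TATA box (TATAAA), the octamer (ATGCAAAT) and a Sox core (AACAAT). No match overlaps another motif.
Sox2 promoter: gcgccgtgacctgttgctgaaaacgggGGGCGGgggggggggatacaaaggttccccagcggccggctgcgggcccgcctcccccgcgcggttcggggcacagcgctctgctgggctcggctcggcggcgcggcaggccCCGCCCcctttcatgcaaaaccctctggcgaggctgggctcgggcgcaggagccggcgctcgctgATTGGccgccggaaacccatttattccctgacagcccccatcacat
The GC box occurs at 223 bases before the start on the forward strand and at 111 on the reverse strand, and a CCAAT box at 46 on the reverse strand. The other 3 motifs do not occur as these letters in this window. Of the 32851 RefSeq windows of this length, 32.7% hold a GC box, 33.8% a CCAAT box, 12.4% a TATA box, 1.60% the octamer and 9.42% the Sox core. The stretch is rich in CpG, with 27 CpG dinucleotides against a median of 6, and 72.0% G and C against a median of 52.4%. A match here describes letters and says nothing of binding.

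The locus was rich in open sites in both pluripotent cell types, less so in NSC, and poor in MEF. ESC sites stood at 462 per Mb against 177 per Mb over the autosomes, a ratio of 2.61, and EpiSC sites at 354 against 157, a ratio of 2.26. For NSC the values were 271 and 223 (1.21), and for MEF 112 and 172 (0.655). By bases the order was the same: ESC sites covered 30.3% of the locus, EpiSC sites 18.4%, NSC sites 16.2% and MEF sites 3.75%, against 9.14%, 7.02%, 10.0% and 6.69% of the autosomes. Chromosome 3 as a whole did not carry this excess, since its density was 0.728, 0.877, 0.915 and 0.934 times the autosomal one in ESC, EpiSC, NSC and MEF. Among 10290 fixed autosomal windows of 240 kb, 7.75% held as many ESC sites as the locus, 6.65% as many EpiSC sites, 36.6% as many NSC sites and 72.8% as many MEF sites. The whole ESC list held 441855 sites, that of EpiSC 387312, that of NSC 555868 and that of MEF 431911. With the lists trimmed to equal length the locus held 104 ESC, 85 EpiSC, 39 NSC and 24 MEF sites.

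**Figure D1:**
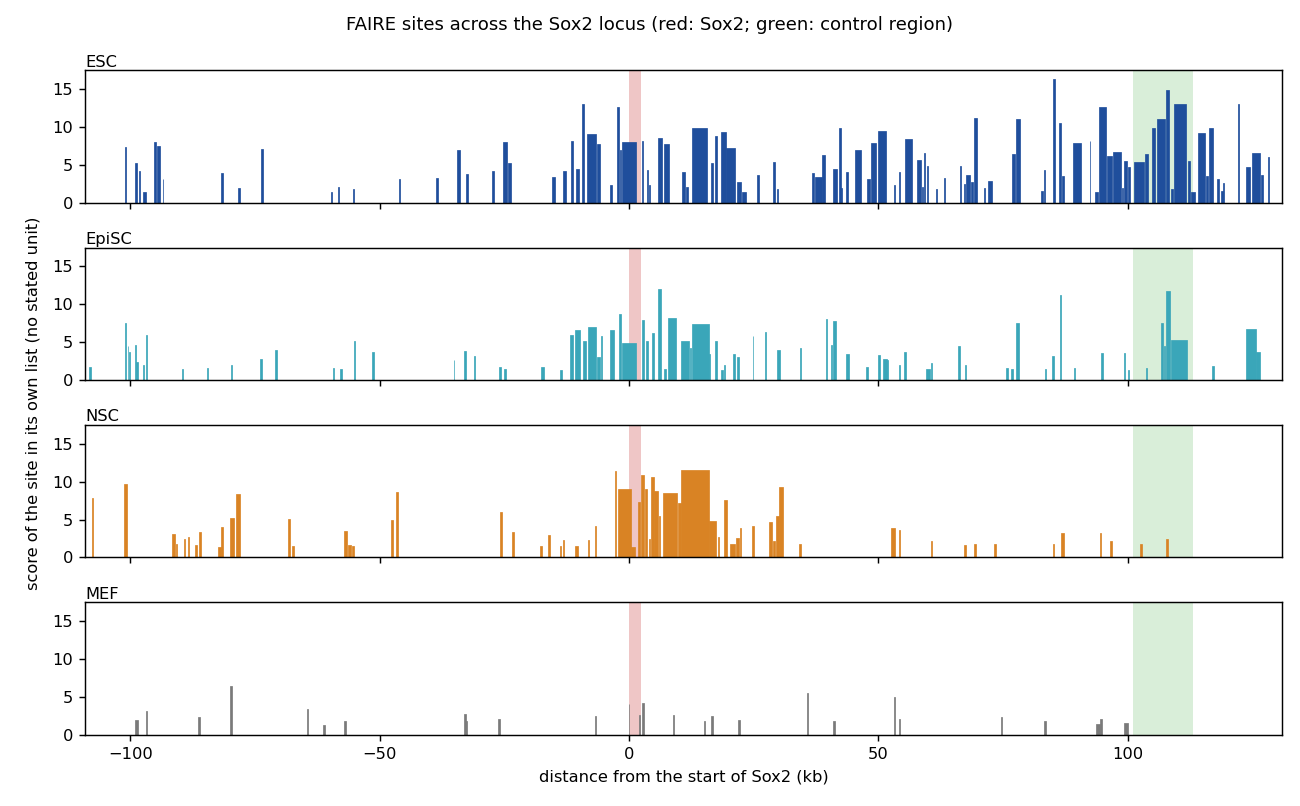
Every site of the 4 lists across the locus, drawn at its distance from the start of Sox2 (x axis, kb) with its score in its own list as height (no stated unit, and not on a scale known to be shared). Sites stand on both sides of Sox2 (red) in all 4 lists, and in the control region (green) the ESC and EpiSC panels hold 9 and 5 sites, NSC 2 and MEF 0.

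Within their own lists the members also differed in rank. Of the 111 ESC sites, 20 (18.0%) were among the highest-scoring 10% of the ESC list, where 10.0% of the whole list stand, and their median score was 4.86 against 3.45 for the list. EpiSC had 14 of 85 sites at that rank in its own list, with a median score of 3.65 against 2.90. NSC had 5 of 65 sites (7.69%) at that rank and a median of 3.33 against 3.94. None of the 27 MEF sites reached it, and their median was 2.31 against 3.31. The highest MEF score was 6.40, against 35.0 in the whole MEF list. The members were wider than their lists in ESC, EpiSC and NSC, with median widths of 462, 373 and 406 bp against 373, 338 and 333 bp. In MEF they were narrower, at 296 against 323 bp. ESC, EpiSC and NSC each had 3 sites of 2 kb or more, or 2.70%, 3.53% and 4.62% of their members, where such sites make up 1.76%, 1.19% and 1.34% of the lists. MEF had none, against 0.272% of its list, and its widest member had 743 bp.

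At the gene itself all 4 cell types held a site across the start of Sox2, and they differed in its width. The ESC site ran from 34547514 to 34550302 (2789 bp, score 8.00, at or above 87.2% of the ESC list) and the EpiSC site from 34547549 to 34550362 (2814 bp, score 4.96, 78.9% of its list), with nearly the same limits. The NSC site lay further upstream, from 34546621 to 34549238 (2618 bp, score 9.09, 88.9% of its list). The MEF site, from 34548822 to 34549006, had 185 bp and a score of 4.02, at or above 62.9% of the MEF list. In the body of the gene the NSC list had 2 more sites. That at 34549372 to 34550045 had a score of 1.33, at or above only 0.534% of the NSC list. That at 34550687 to 34551082 had 7.29 (80.9%). A further NSC site, from 34551292 to 34551951 with 10.9, crossed the 3′ end. MEF had 1 other site in the gene, from 34550814 to 34551032 (score 2.60), which overlapped the NSC site there and no pluripotent one. Of the bases of the gene 56.0% lay in ESC sites, 58.5% in EpiSC sites, 60.0% in NSC sites and 12.2% in MEF sites. The NSC share leans on the site with a score of 1.33, which gave 674 of its 1473 bases.

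In the 10 kb before the gene, both pluripotent lists held most. ESC sites covered 53.6% of it, EpiSC sites 57.8%, NSC sites 30.6% and MEF sites 2.24%. All 7 ESC sites there overlapped an EpiSC site, where 40.1% of the whole ESC list do so, and 67.4% of the bases covered in either of these lists were shared, against 23.7% over the autosomes. Both values rise with coverage alone, and EpiSC sites covered 57.8% of this stretch against 7.02% of the autosomes. The ESC site with the highest score of this stretch, at 34539542 to 34539898 or 9.21 kb before the start (score 13.0, 98.5% of its list), had an EpiSC partner and none in NSC or MEF. ESC had a site of 421 bp centred 3.60 kb before the start (34545122 to 34545542, score 2.29) and EpiSC a wider one of 925 bp (34545073 to 34545997, score 6.57), while NSC and MEF had none. Closer in, 2.67 kb before the start, the highest-scoring NSC site of the stretch (34546127 to 34546391, score 11.4, 94.7% of its list) was in no other list. An ESC site (34546411 to 34546973, score 12.6, 98.2% of its list) began just past its end, so the 2 nearly touched. The EpiSC site with the highest score, 1.86 kb before the start (34546814 to 34547326, score 8.78), overlapped ESC and NSC sites. A region 7.49 kb before the start, 34540541 to 34542340, was held by all 4 lists, by a site of 1799 bp in ESC and 1616 bp in EpiSC and by narrow sites of 271 and 215 bp in NSC and 119 bp in MEF. The limits of SRR1 and SRR2 in mm9 were not at hand, so no site is assigned to either.

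In the 10 kb after the gene NSC came first and ESC behind EpiSC, with NSC covered for 79.1%, EpiSC for 57.0%, ESC for 35.0% and MEF for 5.90%. All 8 EpiSC sites there overlapped an NSC site, where 38.9% of the EpiSC list do so, and 6 of the 8 overlapped ESC, where 45.0% of the list do so. Coverage alone raises such shares here, since NSC sites covered 79.1% of this stretch against 10.0% of the autosomes. Just past the gene a region from 34551292 to 34551999 was held by all 4 lists; it contains the highest-scoring NSC and MEF sites of the stretch, with 10.9 (93.8% of its list) and 4.21 (65.9%). The highest-scoring ESC and EpiSC sites of the stretch lay 6.17 and 6.12 kb after the start. They are the ESC site from 34554691 to 34555500 (score 8.55) and the EpiSC site from 34554808 to 34555288 (score 12.0, at or above 99.1% of its list, the highest EpiSC score of the locus), and an NSC site (34554860 to 34555051, score 5.46, at or above 68.0% of its list) met both.

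**Figure D2:**
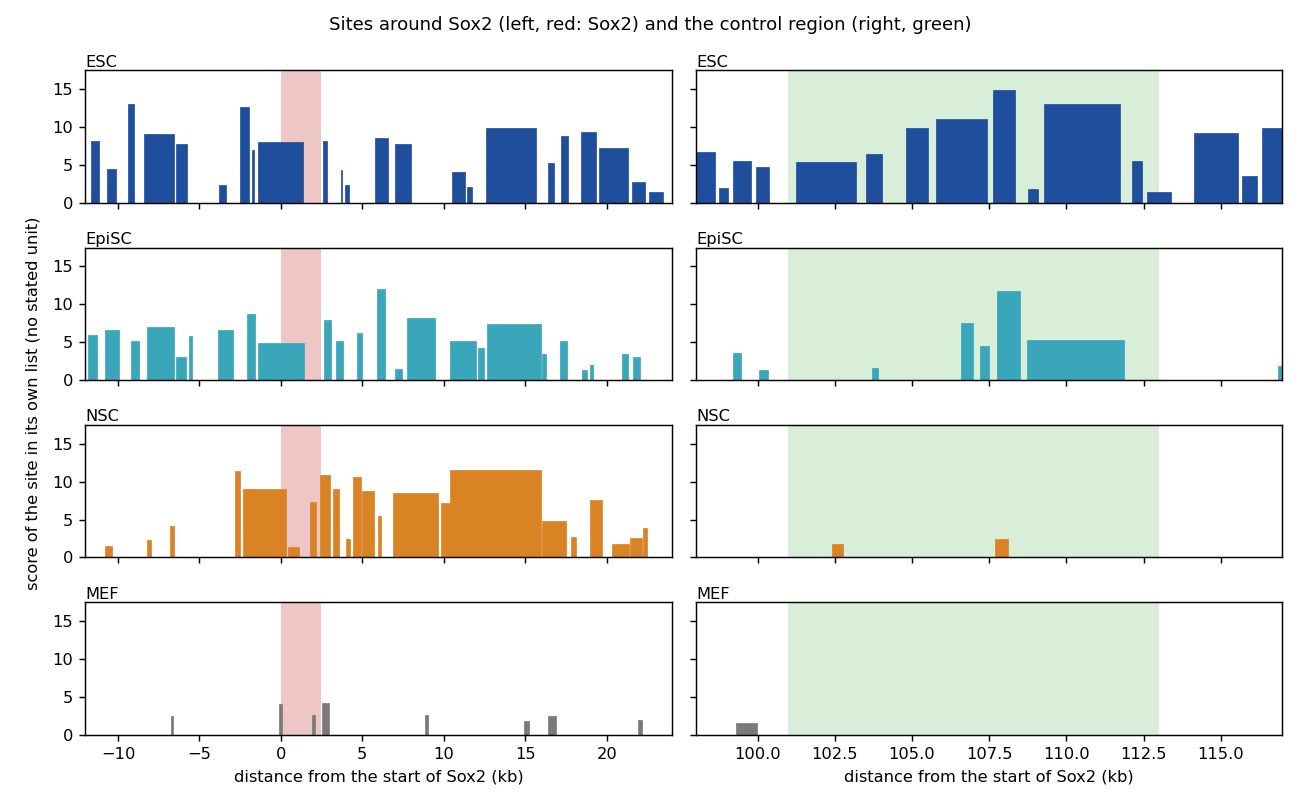
Sites around Sox2 (left) and around the distal control region (right), by distance from the start of Sox2 in kb, with the score of each site in its own list as height (no stated unit). The NSC site from 10.4 to 16.0 kb after the start is the widest member, and the EpiSC sites of the control region gather between 107 and 112 kb, with 1 small site before them.

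The widest site of the locus belonged to NSC and lay just beyond, 10.4 to 16.0 kb after the start of Sox2, from 34559326 to 34564881. It had 5556 bp and a score of 11.6, the highest NSC score of the locus, at or above 95.1% of the NSC list. ESC and EpiSC had their own widest members inside the same region, of 3073 bp (34561507 to 34564579, score 9.90) and 3326 bp (34561594 to 34564919, score 7.37). A MEF site of 316 bp with a score of 1.78 also fell there, at or above 13.9% of its list. In NSC this site was part of a stretch of 19 sites with gaps of at most 1 kb that ran for 25.3 kb, from 2.8 kb before the start to 22.5 kb after it, with 78.7% of its bases covered. EpiSC had a comparable stretch of 13 sites over 16512 bp, from 2.6 to 19.2 kb. In ESC the corresponding stretch, 9 sites over 13.0 kb, began at 10.5 kb. With gaps of at most 0.5 kb, a choice made after the data were seen, the longest NSC stretch fell to 11.2 kb, the longest ESC one to 8.59 kb and the longest EpiSC one to 5.87 kb. With gaps of up to 2 kb the longest stretch had 36.7 kb in ESC, 35.8 kb in EpiSC and 25.3 kb in NSC.

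Between the surroundings of the gene and the control region, a stretch of 88.6 kb, ESC was the most open. ESC had 53 sites on 41.5% of its bases, EpiSC 35 on 17.3%, NSC 23 on 17.1% and MEF 12 on 4.98%. From 30 to 100 kb after the start, ESC sites covered 22.7 to 63.5% of each 10-kb bin, EpiSC sites 6.82 to 22.7%, NSC sites 0 to 11.6% and MEF sites 0 to 17.0%. NSC coverage in this stretch thus came mostly from the side of the gene. The highest ESC score of the whole locus, 16.3 (99.7% of its list), stood here at 34633832 to 34634287, 85.1 kb after the start, over EpiSC and NSC sites. Close to it, at 34635233 to 34635493 or 86.4 kb, was the highest EpiSC score of the stretch, 11.3 (98.8% of its list), over an ESC site alone. The highest MEF score of the stretch, 5.56 at 34584641 to 34584793, was in no other list. Of the 53 ESC sites 21 were in no other list (39.6%), close to the 40.0% of the whole ESC list. For EpiSC this held for 5 of 35 sites, where 30.7% of the EpiSC list are in no other, and for NSC for 3 of 23, where 47.8% of the NSC list are. These shares too depend on how much of the stretch the other lists cover.

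**Figure D3:**
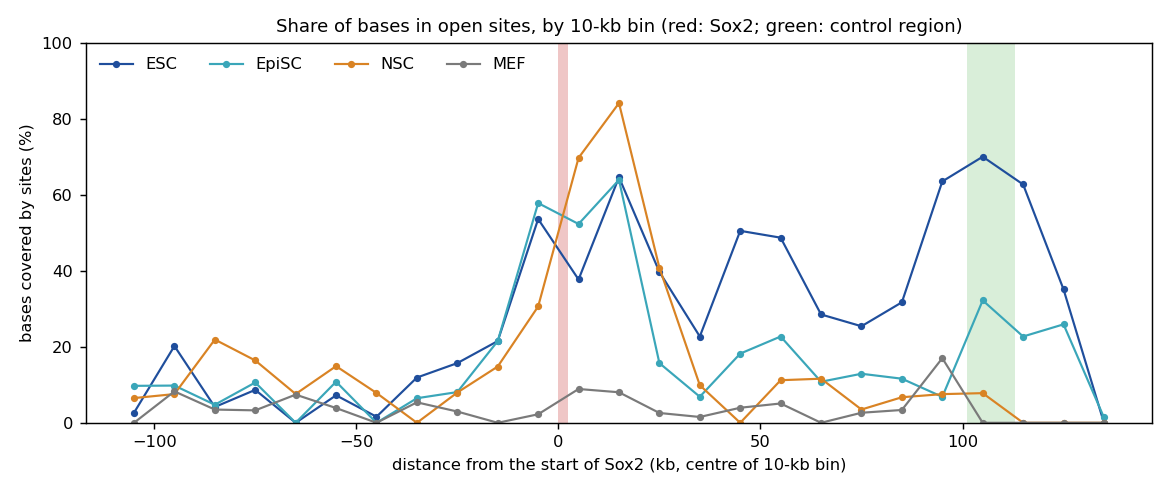
Share of bases covered by sites (y axis, %) in bins of 10 kb, by distance from the start of Sox2 (x axis, kb), 1 line per cell type. ESC has peaks at 10 to 20 kb (64.6%) and at the control region (70.0% at 100 to 110 kb), EpiSC reaches 63.9% and 32.2% in these bins, and NSC reaches 84.1% and 7.80%.

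In the distal control region, 101 to 113 kb after the start, the cell types were far apart. ESC sites covered 76.0% of its 12 kb, EpiSC sites 40.0%, NSC sites 6.50% and MEF sites none, or 8.32, 5.70 and 0.650 times the autosomal share of the same list in the first 3. Among 206013 fixed autosomal windows of 12 kb, 0.191% were covered as much in ESC, 1.41% in EpiSC and 45.7% in NSC, and 24.2% held no MEF base. An empty stretch of this length was thus common in the MEF list.

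ESC had 9 sites in the control region. From the proximal end these were 34650165 to 34652111 (score 5.43), 34652442 to 34652957 (6.39) and 34653721 to 34654461 (9.93). The sites with the highest scores of the region followed, 34654721 to 34656361 (score 11.0), 34656570 to 34657277 (14.9) and 34658192 to 34660657 (13.1). They were at or above 96.2%, 99.4% and 98.5% of the ESC list. Lower-scoring sites stood between and after them, at 34657679 to 34658002 (score 1.84), 34661059 to 34661364 (5.57) and 34661525 to 34662308 (1.43). With gaps of at most 1 kb the region lay in the longest ESC stretch of the locus, 23 sites over 26.9 kb from 92.4 to 119.3 kb, of which 70.8% was covered. With gaps of at most 0.5 kb the longest ESC stretch, of 8.59 kb, ran from 34653721 to 34662308 and so lay almost wholly inside the control region.

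EpiSC had 5 sites in the control region, all of which met an ESC site, where 45.0% of the whole EpiSC list do so. ESC sites covered 76.0% of this region and 9.14% of the autosomes, so more overlap follows from coverage alone. That with the highest score, 34656672 to 34657414 (11.7, at or above 99.0% of the EpiSC list), overlapped the ESC site with the highest score. The widest, 34657647 to 34660806, had 3160 bp and a score of 5.31 and spanned the 2466-bp ESC site. The others were 34655515 to 34655905 (7.54), 34656126 to 34656436 (4.55) and 34652638 to 34652833 (1.58). Of the bases covered by EpiSC sites here 87.9% were also covered in ESC, against 44.1% over the autosomes. Of the ESC bases 46.2% were covered in EpiSC, against 33.9%. Both shares depend on how much of the region the second list covers, 76.0% for ESC and 40.0% for EpiSC. Apart from the site of 196 bp, EpiSC sites filled a stretch of 5.29 kb, from 106.6 to 111.9 kb, with 87.0% covered. The 3 proximal ESC sites had no EpiSC partner but that one. The distal ESC sites, 34661059 to 34661364 and 34661525 to 34662308, had no EpiSC partner either.

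NSC had 2 sites in the control region, 34651349 to 34651701 (score 1.81) and 34656609 to 34657035 (score 2.42), at or above 12.9% and 26.8% of the NSC list. The second lay inside the highest-scoring ESC site of the region and overlapped the highest-scoring EpiSC one. With lists of equal length neither NSC site was left, and the region held 8 ESC, 5 EpiSC, 0 NSC and 0 MEF sites. Beyond the control region, in the last 18.0 kb, ESC had 11 sites on 40.4% of the bases and EpiSC 4 on 16.6%, while NSC and MEF had none. The highest ESC score there, 13.0 at 34671034 to 34671298, was in no other list, and the highest EpiSC score, 6.79, belonged to a site of 1957 bp from 34672642 to 34674598. The last EpiSC member, 34679986 to 34680515, crosses the end of the locus.

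**Figure D4:**
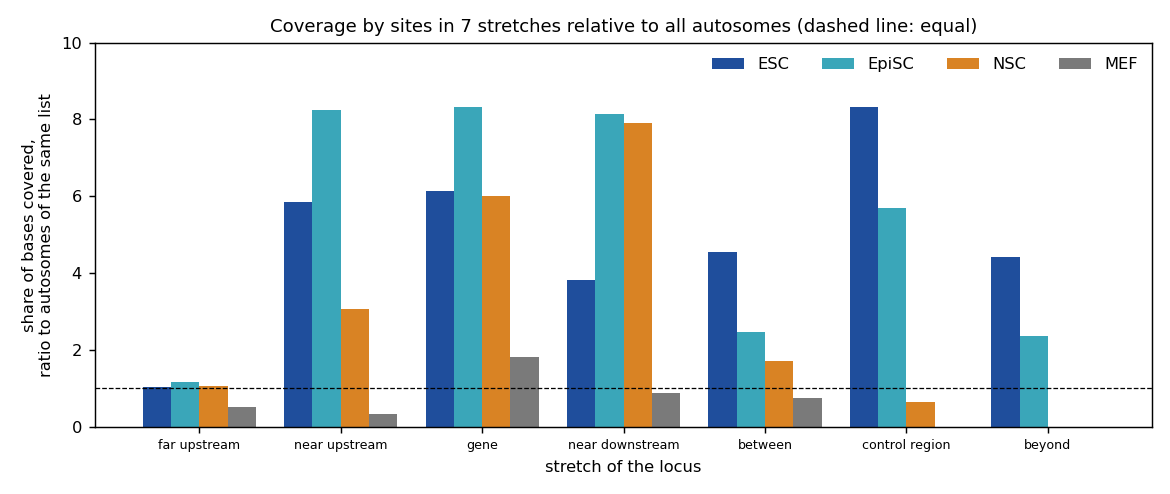
Share of bases covered by sites in 7 stretches of the locus, divided by the share over all autosomes of the same list (y axis; 1, dashed, means equal). ESC is highest in the control region (8.32) and EpiSC (8.33) at the gene, NSC is highest in the 10 kb after it (7.91) and has 0.650 in the control region, and MEF exceeds 1 at the gene alone (1.82).

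The 98.9 kb upstream of the near surroundings stood near the autosomal share in ESC, EpiSC and NSC. ESC sites covered 9.43% of it, EpiSC sites 8.15%, NSC sites 10.6% and MEF sites 3.50%, which is 1.03, 1.16, 1.06 and 0.523 times the autosomal share. ESC and EpiSC shared 17.9% of the bases covered in either list there, below their 23.7% over the autosomes. A region 101 kb before the start carried the highest NSC and EpiSC scores of this stretch, 9.68 at 34447759 to 34448164 and 7.49 at 34447917 to 34448120, with an ESC site over both and none in MEF. The highest ESC score, 8.09, stood at 34537285 to 34537751, and the highest MEF score of the locus, 6.40, at 34468971 to 34469297, over EpiSC and NSC sites. Outside the locus the values for the pluripotent cells were below those of the whole locus. In the 240 kb before it sites covered 6.33% in ESC and 6.67% in EpiSC, against 21.3% in NSC, and in the 240 kb after it 11.1%, 9.94% and 8.25%. In the next 240 kb after that, ESC sites covered 9.56%, EpiSC sites 10.4% and NSC sites 29.7%. For NSC both the 21.3% before the locus and this 29.7% were above the 16.2% of the locus, and the 8.25% was below it. MEF sites covered 2.39%, 2.50% and 3.06% of these 3 flanks, so that MEF was sparse beyond the locus as well.

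Sharing between cell types at the locus was set beside the whole lists, with exact (Clopper-Pearson) 95% intervals that cover counting error alone. The intervals treat sites as independent, though neighbouring sites can meet the same wide site of another list. The intervals may therefore be too narrow. Of the EpiSC sites of the locus 65.9% (54.8 to 75.8) overlapped ESC, against 45.0% of the list, and of the ESC sites 47.7% (38.2 to 57.4) overlapped EpiSC, against 40.1%. NSC sites overlapped ESC in 49.2% (36.6 to 61.9) and EpiSC in 47.7% (35.1 to 60.5), against 25.3% and 26.7% of the list. The few MEF sites met ESC in 55.6% (35.3 to 74.5) and EpiSC in 63.0% (42.4 to 80.6), against 25.0% and 26.6%. Conversely ESC sites met MEF in 14.4% (8.47 to 22.4) and 17 of 85 EpiSC sites met MEF (12.1 to 30.1%), against 24.4% and 29.1%. ESC sites met NSC in 31.5% (23.0 to 41.0), against 33.1%, and NSC sites met MEF in 21.5% (12.3 to 33.5), against 30.5%. In no other list were 17 of the EpiSC sites, where 30.7% of the list are so, 29.2% (18.6 to 41.8) of the NSC sites, against 47.8%, and 4 of the 27 MEF sites, against 43.6%. For ESC the share was 39.6% (30.5 to 49.4), against 40.0%. EpiSC sites met NSC in 37.6% (27.4 to 48.8), against 38.9%, and MEF sites met NSC in 51.9% (31.9 to 71.3), against 40.1%. EpiSC had been grown on fibroblast feeders, and the part of feeder chromatin in their sites was not tested. By construction these shares depend on how much of the locus the second list covers, which was 30.3% for ESC and 3.75% for MEF. In bases of either list, ESC and EpiSC shared 31.9% of the locus (23.7% over the autosomes), EpiSC and NSC 25.4% (15.0%), ESC and NSC 18.7% (13.3%) and NSC and MEF 8.46% (15.4%).

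Merging the 4 lists gave 153 regions in the locus. The shares of these regions depend on how many sites each list has in the locus and how much they cover. Of these 84 were held by 1 list (54.9%, against 65.8% of merged autosomal regions), 42 by 2 lists (27.5%, against 21.9%) and 18 by 3 lists (11.8%, against 8.25%). Regions of ESC alone were the most frequent, 44 (28.8%, against 15.6%), followed by ESC with EpiSC, 23 (15.0%, against 5.47%), and NSC alone, 19 (12.4%, against 23.4%). Counted by site there was no such excess for ESC, since 39.6% of its sites were in no other list, against 40.0% of the whole list. EpiSC alone had 17 (11.1%, against 10.6%) and the 3 lists without MEF shared 10 (6.54%, against 2.99%). Of MEF alone there were 4 (2.61%, against 16.2%), of NSC with MEF 3 (1.96%, against 6.38%), and of ESC with MEF none, where such regions make up 1.75%. ESC shared 9 with NSC (5.88%, against 3.04%), and EpiSC shared 6 with NSC (3.92%, against 3.29%) and 1 with MEF (0.654%, against 1.92%). MEF also joined ESC and EpiSC in 5 (3.27%, against 1.68%), EpiSC and NSC in 2 (1.31%, against 2.04%) and ESC and NSC in 1 (0.654%, against 1.53%). All 4 lists held 9 regions (5.88%, against 4.10%). Of these 9, 7 lay within 30 kb of the start, at -7.5, -0.5, 2.7, 8.2, 13.2, 16.8 and 22.0 kb, and the others at 54.2 and 94.5 kb. Merging joins sites in chains, so a region held by all 4 lists need not have a base common to all. At 8.2 kb the MEF site met EpiSC and NSC sites but no ESC site. At 16.8 kb it met ESC and NSC sites but no EpiSC site. In the control region none of the 8 regions was held by all.

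**Figure D5:**
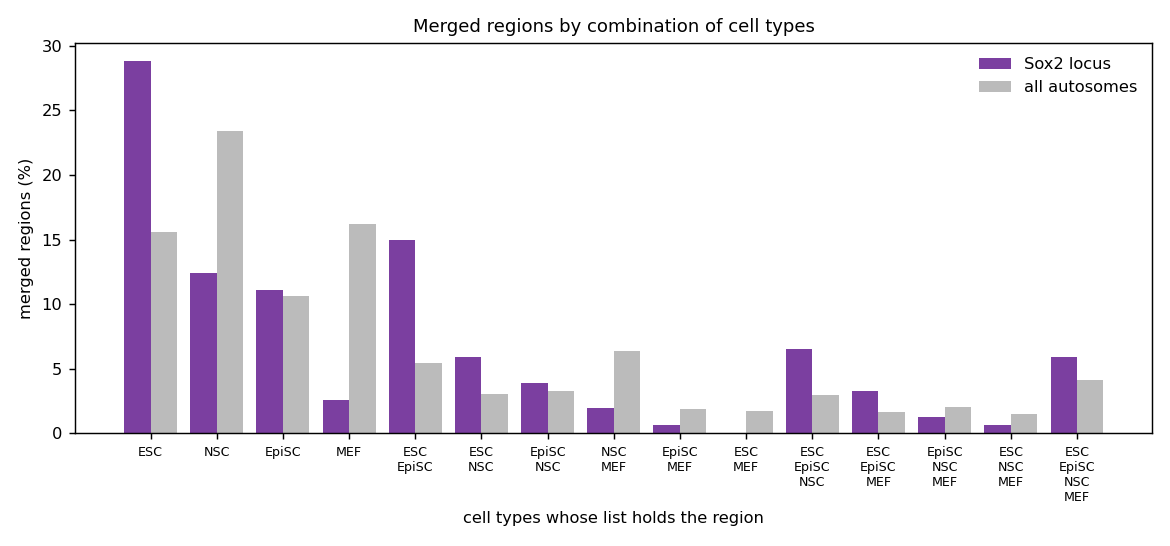
Merged regions by the cell types whose lists hold them (x axis), as a percentage of the 153 regions of the locus (purple) and of all merged autosomal regions (grey). ESC alone (28.8%) and ESC with EpiSC (15.0%) stand above their autosomal shares, and MEF alone (2.61%) below. These shares depend on how many sites each list has in the locus.

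The autosomal windows of 240 kb whose numbers of sites in the 4 lists were most like those of the locus were named by a fixed measure, the Euclidean distance between the 4 log2 ratios of sites plus 1 to the mean window of each list. They were chromosome 4 from 137760001 to 138000000 (114, 82, 63 and 28 sites in ESC, EpiSC, NSC and MEF, distance 0.0847), its neighbour from 138000001 to 138240000 (106, 85, 65 and 30, distance 0.162) and chromosome 17 from 25680001 to 25920000 (98, 84, 68 and 27, distance 0.189). ESC sites covered 26.8%, 31.2% and 25.0% of these windows in the same order, against 30.3% of the locus, and NSC sites 17.3%, 14.8% and 21.0%, against 16.2%. All 3 windows were covered more than the locus in EpiSC, with 22.5%, 22.8% and 20.3% against 18.4%, and in MEF, with 4.87%, 4.94% and 5.08% against 3.75%. Windows with such numbers thus occur elsewhere on the autosomes.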

How the data were processed

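Libraries were amplified by PCR, selected by size on agarose gels and sequenced on an Illumina Genome Analyzer, per the labels' protocols. CASAVA 1.8 and build mm9 are named in the submitters' processing notes. In the deposited lists a site has its limits, a score and a display value; the last departed by no more than 1 from 100 times that score, with 1000 as its ceiling. The score was computed by the authors. The names of the lists carry the word qeseq, a caller of enriched sites. Unit, threshold, aligner, use of the genomic control and any pooling of replicates were not given in the sources used here. Ranking sites within a list was the only use made of the authors' scores.

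Limits of the locus, gene and control region were taken as given for mm9. Starts were taken as 0-based in the lists and printed 1-based. Sites were put into 7 stretches by midpoint, with 10 kb as near surroundings, and counted as overlapping at 1 bp. All sites that overlap the gene or the control region, the highest score of each list in each other stretch, the regions of all 4 lists and the 3 windows most alike were named by rule; further sites were chosen after their values were seen. The flanks, the bins and the limits of 2 kb, 1 kb gaps and the highest 10% of scores were also chosen then. The members and all settings were chosen with earlier results of these data known. Promoter letters are from RefSeq, where the 1 gene sought, Sox2, was matched. The settings varied were the threshold, the length of the lists, merging, the limits of the stretches and the overlap. Analyses used scipy 1.17.1, pandas 2.3.3, numpy 2.4.6 and matplotlib 3.10.9 under Python 3.11.15. Interval functions were tested on simulated data and against bedtools 2.31.1. The 6 samples without a list, 2 of sheared genomic DNA among them, were not analysed here.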

Additional observations from a re-analysis of the deposited data

How the results depend on the processing

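Of 104 values recomputed under an alternative, 79 stayed within 1.5 times (numbers of sites) or within their interval (shares) and 25 moved. Some of the 79 could not move. The EpiSC list, the shortest, set the equal length and so kept its numbers of sites. The 0 MEF sites of the control region could not change by trimming or merging. Keeping only the higher-scoring 50% of every list left 53 EpiSC, 27 NSC and 6 MEF sites in the locus, 0 NSC sites in the control region and 2 MEF sites near the gene; the share of ESC sites in NSC was then 19.2% and in MEF 2.56%, of EpiSC sites in MEF 3.77%, of NSC sites in MEF 11.1%, and of MEF sites in ESC and in EpiSC 33.3% each. With lists of equal length the locus held 39 NSC sites and the control region 0, and 22.1% of ESC sites and 25.9% of EpiSC sites met NSC. Both settings leave fewer sites by construction, except that equal length leaves the EpiSC list whole. Limits of 5 kb around the gene gave 8 ESC, 8 EpiSC and 3 MEF sites, and limits of 20 kb gave 24 ESC, 26 EpiSC, 26 NSC and 8 MEF sites. Extending the control region by 5 kb on either side gave 17 ESC, 8 EpiSC and 1 MEF sites. Merging sites under 200 bp apart, placing sites by overlap and requiring 50% of the shorter site moved none of the values they were run on. For the longest stretches, 2-kb gaps gave 3.03 kb in MEF. No paired analysis was possible because only 1 list per cell type was at hand, and whether it holds 1 sample or pooled ones is not given; no replicate could be left out either. Depth is unknown and limits comparison of numbers between lists, and a difference between cell types has no replicate check.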
